A study of Mus musculus with 6 samples.

Results

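The genes described here are 10 members of the fibroblast growth factor (FGF) system, taken by symbol from 49671 genes counted in embryonic mouse pancreas. They are the ligands Fgf1, Fgf7, Fgf9, Fgf10 and Fgf18 and the receptors Fgfr1, Fgfr2, Fgfr3, Fgfr4 and Fgfrl1. All 10 were found in the count table, and all 10 passed the filter on low counts. RNA came from pancreata of C57BL/6J embryos at 14.5 days post coitum, either controls (3 libraries) or treated with AMI-5 at 10 µM (3 libraries). AMI-5 blocks enzymes that methylate proteins, those acting on arginine included, and the series asks how it affects pancreas differentiation. No genetic change is named for either group, and the labels refer culture and treatment steps to publications not used here, so neither the control treatment nor the time of exposure is known here.

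FGFs are secreted proteins that bind receptor tyrosine kinases together with heparan sulfate, and the activated receptors signal mainly through adaptors, RAS and ERK. In the embryonic pancreas, Fgf10 from the mesenchyme keeps epithelial progenitors dividing through the epithelial splice form of Fgfr2, and Fgf7 binds the same form. Fgf1 can bind every receptor, Fgf9 and Fgf18 favour the mesenchymal splice forms, and Fgfrl1 has no kinase domain. Counts per gene do not separate splice forms.

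Total counts were 12445425 to 13321899 in the control libraries and 22894312 to 24805188 in the AMI-5 libraries, and the counting error of a low gene is therefore smaller with AMI-5. Per the labels, an earlier version of the library kit was used for samples marked A. This mark is read here as the controls, titled A with a number, though the AMI-5 titles, Am with a number, also begin with A. On that reading, kit and treatment cannot be told apart. Processed pseudogenes took 0.371% to 0.405% of control counts and 2.91% to 3.15% of AMI-5 counts. AMI-5 replicate 2 stood apart by liver transcripts: Alb was at 596 CPM there and at 7.18 to 17.6 CPM in the other 5 libraries. Nothing says that libraries of a group came from separate embryos or cultures, so the p-values rest on the variation among these libraries alone, possibly technical. A gene was called where its p from the quasi-likelihood F test of edgeR, after Benjamini-Hochberg adjustment over 17519 genes, was under 0.05. AMI-5 samples had 4820 genes called higher and 4652 called lower, a split that became 3962 and 5883 with libraries scaled by total counts alone (22.6% and 33.6% of genes, 56.2% in all). The pancreas markers Pdx1 (53.6 to 96.4 CPM) and Cpa1 (5388 to 8808 CPM) were present in every library.

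With AMI-5, the ligands Fgf10 and Fgf7 and the receptor Fgfr3 were higher, and the receptors Fgfr4, Fgfrl1 and Fgfr1 were lower. Fgf1, Fgf9, Fgf18 and Fgfr2 did not pass the test. None of the 3 falls was called when trends of GC content and gene length were removed over all tested genes. With trends taken over protein-coding genes of mostly unique sequence, Fgfr4 and Fgfrl1 kept their calls and Fgfr1 did not. Fgf7 lost its call in both ways, and it passed the filter on low counts only through the AMI-5 libraries, where it is high. The main calls are 3 higher, Fgf7 among them, and 3 lower of 10. Of all tested genes, 27.5% were higher, 26.6% lower and 54.1% either. The members' share of calls is thus near that of all genes, and what follows is about which members moved and by how much. The median log2 fold change was 0.32 over the 5 ligands and -0.32 over the 5 receptors, against -0.0013 over all genes tested. The ligand median is the value of Fgf1, which was not called and whose groups overlapped. The receptor median is the value of Fgfr1, of 55.4% GC, and protein-coding genes of 55% to 60% GC had a median of -0.28. With trends removed, Fgfr1 was at 0.15 over all tested genes and at -0.055 over genes of mostly unique sequence. The 2 groups did not overlap for 6 of 10 members, Fgf7 included, against 61.9% of all tested genes (31.3% higher, 30.6% lower). CPM are library-scaled counts with TMM adjustment, and fold changes are AMI-5 over control.

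**Figure D1:**
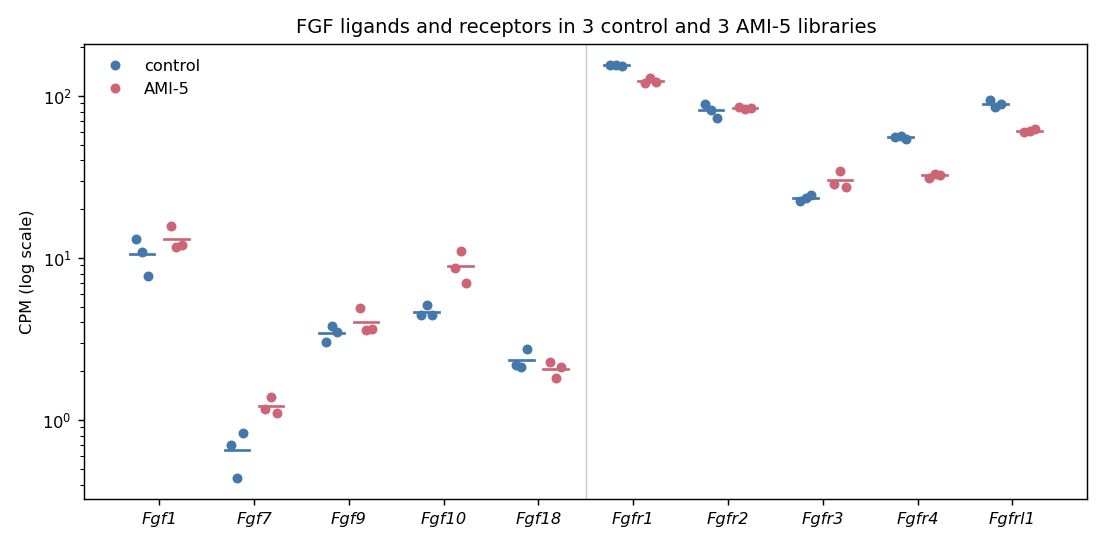
CPM on a log axis of the 5 ligands (left) and 5 receptors (right) in each library, with the mean of each group as a bar. The groups do not overlap for Fgf7, Fgf10, Fgfr1, Fgfr3, Fgfr4 and Fgfrl1, and the receptors lie above the ligands.

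Fgf10, the mesenchymal growth factor of pancreatic progenitors (ENSMUSG00000021732, chromosome 13, 118669791 to 118792115, plus strand, mm10), was at 4.42, 5.10 and 4.47 CPM in the controls and at 8.71, 11.09 and 6.97 CPM with AMI-5. Every AMI-5 library lay above every control, and AMI-5 replicate 2 was the highest. The log2 fold change was 0.93 (SE 0.18, n = 3 in each group, edgeR adjusted p = 0.000974), and 794 reads stood behind it in all. The call held in 18 of 18 other ways of processing, with values from 0.65 to 1.10. Fgf7, also called keratinocyte growth factor (ENSMUSG00000027208, chromosome 2, 126034658 to 126091185, plus strand), was the lowest member, with 6 to 11 reads in each control and 26 to 31 in each AMI-5 library. It stood at 0.70, 0.44 and 0.83 CPM in the controls and at 1.17, 1.38 and 1.10 CPM with AMI-5, with no overlap. Its log2 fold change was 0.89 (SE 0.31, edgeR adjusted p = 0.0309). Fgf7 passed the filter on low counts only through the AMI-5 libraries, where it is high, so its place among the higher members is not independent of that filter. The fit with no filter gave 0.90 (edgeR adjusted p = 0.0417), and DESeq2 gave 0.91 with no call (DESeq2 adjusted p = 0.164). The Fgf7 call held in only 7 of 18 other ways of processing, among which leaving out control replicate 1 (0.93) or 2 (0.66) or AMI-5 replicate 1 (0.92) or 2 (0.81) ended it.

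The 250 bases before the RefSeq start (GRCm38.p6) are shown for both rising ligands and for Fgfrl1, a receptor that fell, because these genes moved in opposite directions and also differ in base composition. RefSeq start sites were found for 8 of the 10 members, and the window of Fgfr4 is not shown since 178 of its bases lie in an annotated exon. Capitals mark a GC box (GGGCGG), an E-box (CACGTG) or an ETS core (CCGGAA), each searched on both strands with any overlap counted, as was TATAAA.
Fgf10, chr13:118714449-118714698, plus strand: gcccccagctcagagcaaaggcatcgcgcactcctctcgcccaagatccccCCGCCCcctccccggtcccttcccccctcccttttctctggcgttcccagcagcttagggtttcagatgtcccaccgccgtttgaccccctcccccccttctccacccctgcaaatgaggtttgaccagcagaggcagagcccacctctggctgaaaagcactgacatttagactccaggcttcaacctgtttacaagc
Fgf7, chr2:126034408-126034657, plus strand: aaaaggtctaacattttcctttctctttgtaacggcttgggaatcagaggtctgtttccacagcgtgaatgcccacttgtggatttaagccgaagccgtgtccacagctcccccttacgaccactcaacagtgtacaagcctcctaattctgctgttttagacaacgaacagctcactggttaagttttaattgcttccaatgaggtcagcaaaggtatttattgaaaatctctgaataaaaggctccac
Fgfrl1, chr5:108693979-108694228, plus strand: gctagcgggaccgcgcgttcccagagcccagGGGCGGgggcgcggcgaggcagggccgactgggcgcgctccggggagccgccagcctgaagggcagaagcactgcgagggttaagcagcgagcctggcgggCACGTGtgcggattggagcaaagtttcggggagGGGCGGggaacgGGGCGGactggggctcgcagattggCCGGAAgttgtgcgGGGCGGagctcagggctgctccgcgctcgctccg
The Fgfrl1 window is 73.6% G and C with 30 CpG dinucleotides and 4 GC boxes. The window of Fgf10 is at 61.2% with 8 CpG and 1 GC box, and that of Fgf7 at 43.6% with 6 CpG and no GC box. Fgfr3, which rose, goes against this contrast: the windows before its 2 RefSeq starts are at 66.8% and 72.8% with 3 and 2 GC boxes. Over 32817 promoter windows of the same length, the median was 52.4% G and C with 6 CpG, and 32.7% held a GC box, 6.02% held the E-box, and TATAAA was found in 4060 and the ETS core in 3944 of them. These matches describe letters and are not evidence of binding.

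The other ligands did not pass the test, and their intervals leave room for changes either way. Fgf1 (ENSMUSG00000036585, chromosome 18, 38838673 to 38929404, minus strand) was the most abundant ligand, at 13.1, 10.9 and 7.73 CPM in the controls and 15.7, 11.8 and 12.04 CPM with AMI-5. The groups overlapped, control replicate 3 was the lowest library, and the log2 fold change was 0.32 (95% confidence interval -0.10 to 0.74, edgeR adjusted p = 0.181). Leaving out control replicate 1 gave 0.50 and a call (edgeR adjusted p = 0.0448). Fgf9, a ligand of mesothelium and epithelium in several organs (ENSMUSG00000021974, chromosome 14, 58070547 to 58112337, plus strand), was at 3.02, 3.79 and 3.49 CPM in the controls and 4.89, 3.61 and 3.63 CPM with AMI-5, where only AMI-5 replicate 1 lay above all controls. Its log2 fold change was 0.23 (95% confidence interval -0.19 to 0.66). Fgf18 (ENSMUSG00000057967, chromosome 11, 33117430 to 33147400, minus strand) was at 2.17, 2.11 and 2.73 CPM in the controls and 2.29, 1.83 and 2.11 CPM with AMI-5, a log2 fold change of -0.17 (95% confidence interval -0.64 to 0.30).

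Among the receptors, Fgfr4 showed the largest fall of the 10 members. Fgfr4, which in liver works with Klb as the receptor of a bile acid feedback hormone (ENSMUSG00000005320, chromosome 13, 55152640 to 55168759, plus strand), was at 55.8, 56.9 and 54.3 CPM in the controls and 31.3, 33.1 and 32.6 CPM with AMI-5. The gap between the groups was far wider than the spread within either. The log2 fold change was -0.78 (SE 0.060, edgeR adjusted p = 5.29e-07), to 0.58 times the control level. Leaving out the liver-rich AMI-5 replicate 2 gave -0.78. Fgfrl1 (ENSMUSG00000008090, chromosome 5, 108692382 to 108706924, plus strand), the receptor without a kinase domain, was at 94.6, 84.8 and 89.7 CPM in the controls and 60.2, 60.8 and 62.05 CPM with AMI-5. It fell by 0.56 on the log2 scale (SE 0.059, edgeR adjusted p = 8.95e-06). Fgfr1, the main FGF receptor of mesenchymal cells (ENSMUSG00000031565, chromosome 8, 25513654 to 25575718, plus strand), was at 154.9, 155.8 and 153.01 CPM in the controls and 120.3, 128.6 and 122.5 CPM with AMI-5. Its groups were also separate, and the log2 fold change was -0.32 (SE 0.053, edgeR adjusted p = 0.000321). In the fit that removes trends of GC content and length over all tested genes, Fgfr4 was at -0.15 (edgeR adjusted p = 0.0511), Fgfrl1 at 0.024 and Fgfr1 at 0.15, called higher. With trends taken over protein-coding genes of mostly unique sequence, Fgfr4 (-0.46) and Fgfrl1 (-0.29) kept their calls and Fgfr1 (-0.055) did not.

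Fgfr3 was the only receptor that rose. Fgfr3, best known as a brake on cartilage growth (ENSMUSG00000054252, chromosome 5, 33721674 to 33737068, plus strand), was at 22.4, 23.5 and 24.3 CPM in the controls and 28.5, 34.4 and 27.2 CPM with AMI-5. The groups did not overlap, and AMI-5 replicate 2 was the highest. Its log2 fold change was 0.36 (SE 0.097, edgeR adjusted p = 0.00798), and the call held in 18 of 18 other ways of processing (0.27 to 0.81). Of its exonic bases, 13.9% lie opposite the antisense gene G630022F23Rik, which had 6 reads over the 6 libraries. Fgfr2, the receptor of Fgf7 and Fgf10 on epithelium (ENSMUSG00000030849, chromosome 7, 130162451 to 133123350, minus strand), was at 89.4, 81.6 and 72.7 CPM in the controls and 85.1, 83.6 and 83.8 CPM with AMI-5. All AMI-5 values lay inside the control range, and the log2 fold change was 0.051 (95% confidence interval -0.11 to 0.21, edgeR adjusted p = 0.575). The deposited Fgfr2 model holds a gap of 2815494 bases without an exon, and 314 of its exonic bases are shared with Ctbp2 on the same strand. Over all 10 members, at most 2.47% of a gene's 50-base sequences occur in another annotated gene.

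GC content ran along with these differences. Across the 10 members, log2 fold change fell with the GC content of the longest transcript (Pearson r = -0.84, Spearman rho = -0.73, 10 genes of the same 6 libraries). Across 14565 protein-coding genes the same measures were -0.27 and -0.44. Fgf7 (38.0% GC) and Fgf10 (41.6%) lie at the low end, and Fgfrl1 (57.8%) and Fgfr4 (58.8%) at the high end. Of the 2769 tested protein-coding genes with 55% to 60% GC, 53.3% were lower and 7.04% higher. Their median log2 fold change was -0.28. In the class of 40% to 45% GC, which holds Fgf10, 37.3% of 2799 genes were higher and the median was 0.16. Fgfr3, at 56.4% GC, rose in a class where most called genes fell. The fits were repeated with trends of GC content and gene length removed from each library, and the part of base composition in the changes was not tested further. With trends taken over protein-coding genes that share under 5% of their 50-base sequences with other genes (unique-sequence genes), Fgf10 (0.75), Fgfr3 (0.65), Fgfr4 (-0.46) and Fgfrl1 (-0.29) kept their calls, and Fgfr1 (-0.055) and Fgf7 (0.53) did not. That fit called 38.7% of 12817 genes, 17.9% higher and 20.8% lower. Over all tested genes, processed pseudogenes included, Fgf10 (0.66) and Fgfr3 (0.81) kept theirs, and Fgfr4, Fgfrl1 and Fgfr1 did not. In that fit Fgfr2 (0.33) was also called higher and Fgf18 (-1.17), the shortest member, lower, while 31.8% of all genes were called higher and 23.5% lower (55.3% in all).

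**Figure D2:**
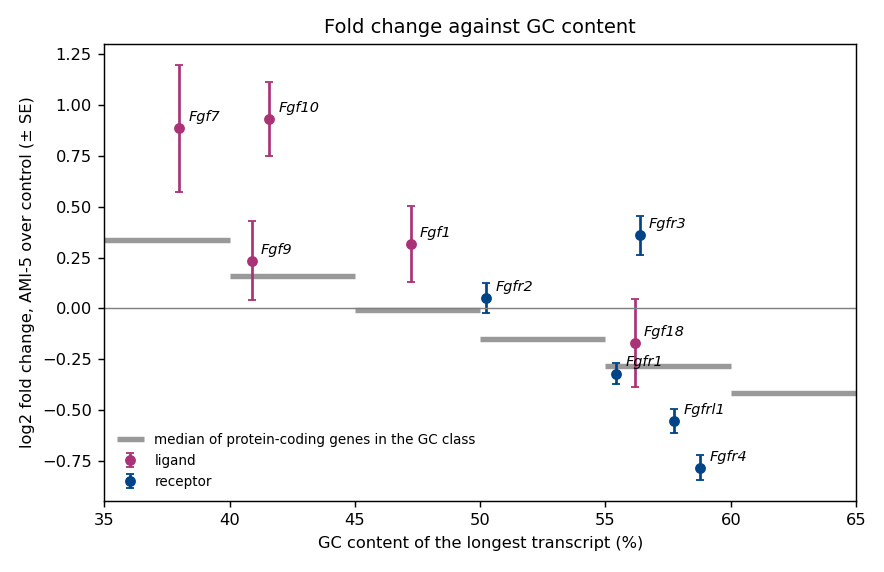
Log2 fold change (± SE) of each member against the GC content of its longest transcript, with the median of tested protein-coding genes in each GC class as grey bars (the outer bars stand for all genes below 40% and from 60%). Ligands of low GC lie above 0, Fgfr4 and Fgfrl1 lie below the median of their class, and Fgfr3 lies above it.

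**Figure D3:**
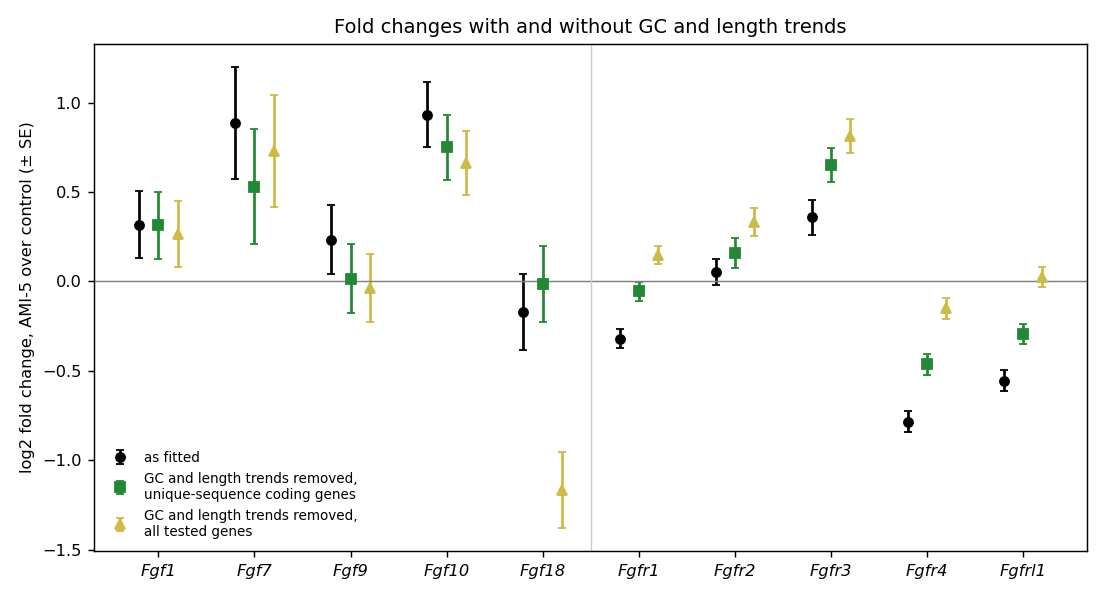
Log2 fold change (± SE) of the members as fitted and with GC and length trends removed in 2 ways. Fgf10 and Fgfr3 stay above 0 in all 3 fits, while Fgfr1 and Fgfrl1 move from below 0 to 0.15 and 0.024 when trends are removed over all genes.

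Per kilobase of exon, every receptor stood above every ligand. In the controls, the order of mean CPM per kilobase was Fgfrl1 (32.3), Fgfr4 (15.7), Fgfr1 (15.7), Fgfr2 (7.87), Fgfr3 (3.27), Fgf1 (2.27), Fgf18 (1.97), Fgf10 (1.01), Fgf9 (0.805) and Fgf7 (0.202). Fgfr4 and Fgfr1 overlapped between libraries, as did Fgf1 and Fgf18, and all other neighbours in this order were separate. With AMI-5, Fgfr1 (12.5) stood above Fgfr4 (9.13) with no overlap, and Fgf10 (1.94) reached the range of Fgf18 (1.75). Lengths are those of merged exons, whether or not each exon is used here.

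The make-up of the receptor transcripts, taken within each library, differed between the groups. Library scaling does not touch this measure, but trends of GC content and gene length can. The receptors run from 50.2% (Fgfr2) to 58.8% GC (Fgfr4), and no trends were removed from the shares given here. Fgfr4 made up 20.4%, 21.9% and 20.9% of the summed receptor level per kilobase in the controls and 16.1%, 16.4% and 16.5% with AMI-5. Fgfr2 went from 10.5% ± 0.845 to 14.6% ± 0.420 (SD, n = 3 in each group) and Fgfr3 from 4.38% ± 0.296 to 7.498% ± 0.824. Fgfrl1 was at 43.1% ± 1.44 and 39.2% ± 0.870, and Fgfr1 at 20.95% ± 0.584 and 22.4% ± 0.348. For all 5 receptors the groups did not overlap, and the exact two-sided permutation p was 0.1, the smallest that 3 against 3 allows (0.1 also adjusted over the 5). With Fgfrl1 left out of the sum, the shift of Fgfr4 was -10.1 percentage points in place of -4.72. Shares sum to 100%, so they are not independent. The shift of Fgfr1 was 0.023 percentage points with Fgfrl1 left out of the sum, and -0.86 without division by length, so its direction rests on those choices.

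**Figure D4:**
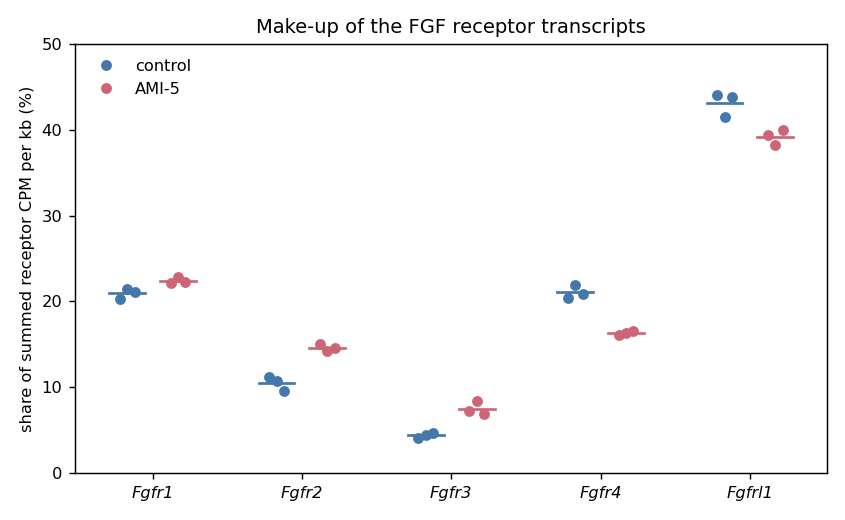
Share of each receptor in the summed receptor CPM per kilobase, by library (points) and group mean (bars). Fgfr4 and Fgfrl1 take smaller shares with AMI-5, and Fgfr2 and Fgfr3 larger ones. Trends of GC content and gene length are not removed.

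In whole pancreata, fewer cells of a type and less RNA per cell cannot be told apart. Of 12 epithelial markers, 9 were lower and 1 higher with AMI-5 (median -0.36 on the log2 scale), and their summed level was 3996 to 4662 CPM in the controls and 3446 to 3784 CPM with AMI-5. In the controls the most abundant were Spint2, a protease inhibitor (-0.36), and Cdh1, the epithelial cadherin (-0.11, not called). The keratin Krt18, at 524 and 604 CPM, was the one that was higher (0.21). Among all tested protein-coding genes, 30.6% were lower and 20.1% higher. In the class of 55% to 60% GC, 53.3% were lower and 7.04% higher (median -0.28). The epithelial markers span 49.4% (Spint2) to 62.7% GC (Cldn3), and the part of GC content in the marker changes was not tested. Of 12 mesenchymal markers, 4 were higher and 5 lower (median -0.037), with overlapping sums of 9760 to 10230 and 9438 to 10860 CPM. The collagen genes Col3a1 (0.19) and Col1a1 (-0.27) led that list and differed in sign. Relative to the summed mesenchymal markers, Fgf10 was 0.91 higher on the log2 scale with AMI-5 (-11.06 and -10.15). Relative to the summed epithelial markers, Fgfr4 differed by -0.54, Fgfrl1 by -0.31 and Fgfr2 by 0.30. Such sums weigh abundant genes most and do not measure cell number. Single mesenchymal markers ran from -1.03 to 0.83 and epithelial ones from -0.86 to 0.21. Which cells express each member is not known from these data. Markers of mesothelium, which makes Fgf9 in other organs, had overlapping sums (201 to 225 and 196 to 241 CPM) with 2 higher and 0 lower of 8. Most of these sums was Krt19 (means of 143 and 145 CPM), which is also among the epithelial markers, so they say little about mesothelium. Acinar markers were 6 higher and 0 lower of 10, with sums of 42770 to 57540 CPM and 84170 to 107300 CPM. Liver markers summed to 380 to 434 CPM in the controls and 203 to 1540 CPM with AMI-5. Ttr made up most of the sum in every library but AMI-5 replicate 2. It had means of 357 CPM in the controls and 193 CPM with AMI-5, and was called lower (-0.89). Outside AMI-5 replicate 2, these sums therefore follow Ttr and say little about liver. No marker of these lists was at 0 reads in all libraries, and the part of cell make-up in the members' changes was not tested.

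Other genes of the FGF pathway were mixed. Of 84 listed, 74 passed the filter, and 17 of these were higher and 25 lower (median log2 fold change -0.10). Of the 14571 protein-coding genes tested, 20.1% were higher and 30.6% lower (50.8% in all), so these counts are near the background. With trends removed over all tested genes, 29 were higher and 11 lower, while that fit called 31.8% of all genes higher and 23.5% lower. Over unique-sequence genes 13 were lower, while that fit called 20.8% of its genes lower.

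Further ligands were mostly at or near the detection limit: 3 of 13 passed the filter. Fgf2, which like Fgf1 lacks a classical signal peptide, rose from 9.997, 10.1 and 11.5 CPM to 16.8, 20.2 and 15.6 CPM (log2 fold change 0.73, edgeR adjusted p = 0.000286). Fgf5 had 16 reads over the controls and 114 over the AMI-5 libraries (2.03, edgeR adjusted p = 0.029), a call lost in 2 of the 6 fits that leave out a library. It too passed the filter only through the AMI-5 libraries. Fgf20 is named here after its values were seen. It was under the filter with 11, 6 and 9 reads in the controls and 2, 1 and 2 with AMI-5 in spite of their greater depth. DESeq2 gave -3.15 (SE 0.97, DESeq2 adjusted p = 0.00413), and the fit with no filter gave -3.03 (SE 0.66, edgeR adjusted p = 2.29e-05). The fit with no filter called 35.3% of 30813 genes, 20.3% higher and the rest lower. For Fgfr4 it gave an edgeR adjusted p of 3.62e-23, against 5.29e-07 in the main fit, so its small p-values may overstate what 3 libraries per group can show. Among the intracellular FGF homologous factors, which bind sodium channels and not FGF receptors, Fgf12 (0.93) and Fgf14 (0.90) rose, and Fgf11 (0.44) and Fgf13 (-0.097) did not pass. Fgf14 also passed the filter only through the AMI-5 libraries. Its call ended in 3 of 6 fits without a library, with DESeq2, with the replicate block and with trends removed in either way.

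Proteins that hold or carry FGFs outside the cell numbered 15, of which 3 were higher and 5 lower. Fgfbp1, which releases FGFs from the matrix, rose from 1.33 ± 0.503 to 4.16 ± 0.748 CPM (log2 fold change 1.64, edgeR adjusted p = 0.000259). The syndecan Sdc2 (0.41) also rose, and the glypicans Gpc4 (-0.44) and Gpc3 (-0.27) fell, while Sdc1 was at -0.12 and not called. Of 12 enzymes that build or trim heparan sulfate, 1 was higher, the sulfotransferase Hs2st1 (0.32), and 5 were lower, among them the sulfotransferase Hs6st1 (-0.45) and the sulfatase Sulf2 (-0.34). Hs6st1 and Sulf2 lost their calls with trends removed in either way. Extl3, the most abundant of them, was at -0.12 and not called.

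Adaptors and the RAS-ERK cascade gave 6 higher and 10 lower of 22. Plcg1, a phospholipase that binds activated FGF receptors, had a log2 fold change of -0.54, the phosphatase Ptpn11 of -0.35 and the ERK kinase Map2k2 of -0.38. Plcg1 and Ptpn11 lost their calls with trends removed over all genes, and Map2k2 (60.4% GC) turned to 0.37. Feedback inhibitors and transcriptional targets of the pathway gave 2 higher, 2 lower and 10 of 14 not called. Spred1, an inhibitor of RAS signalling, rose from 74.5 ± 4.16 to 106.3 ± 4.29 CPM (0.51), and the ERK phosphatase Dusp6 from 39.1 ± 0.680 to 50.5 ± 4.86 CPM (0.37). Rasa3, which switches off RAS, had a log2 fold change of -0.22, a call lost in 3 of 6 fits without a library and with trends removed in either way. Of 4 splicing regulators known to act on receptor splice forms, Esrp2 (-0.49), Ptbp1 (-0.41) and Rbfox2 (-0.39) were lower and Esrp1 (0.25), also epithelial, was higher.

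**Figure D5:**
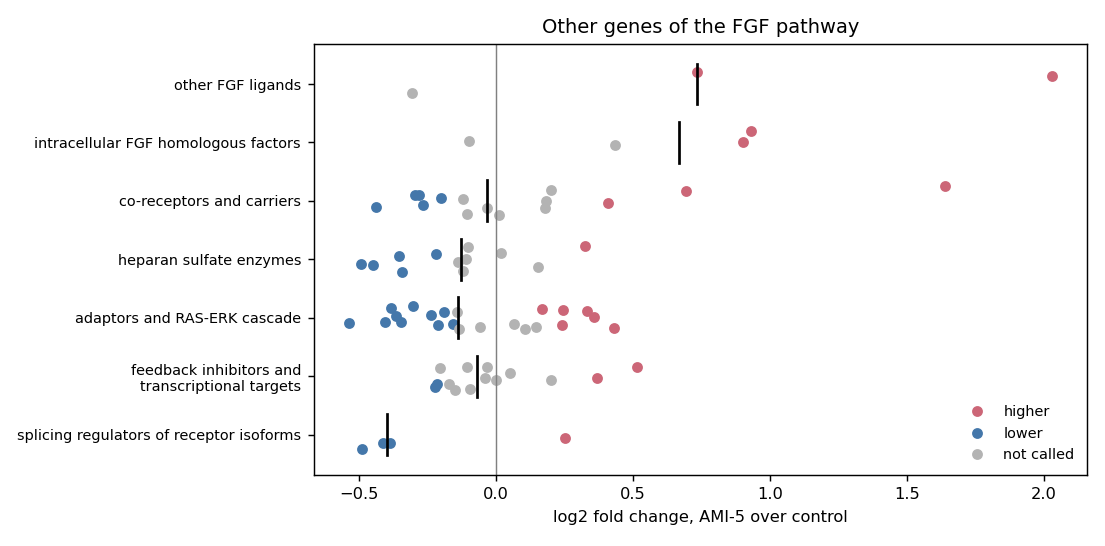
Log2 fold change of each tested gene of 7 pathway lists, coloured by call, with the list median as a black line. Feedback inhibitors and targets hold mostly uncalled genes near 0, and the rises past 1.5 are Fgf5 and Fgfbp1.

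Genes with a like pattern were sought over the 6 libraries among 11728 protein-coding genes, by root mean square distance of centred log2 CPM. Nearest to Fgf10 were P4ha2 (distance 0.064), a collagen prolyl hydroxylase, Rtl3 (0.068) and Itgb3 (0.071), an integrin subunit. Fgfr4 lay nearest to Emc1 (0.021), Dennd1c (0.026) and Ccdc9 (0.027), and Fgfr2 to Sesn2 (0.024), Rpl23 (0.026) and Pip5k1a (0.027). These names are a description only.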

How the data were processed

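The authors deposited raw read counts per gene for 6 libraries in a table of 49763 entries. The tools were featureCounts 1.6.2, GSNAP 2018-05-30 and bcl2fastq 2.19.1 and the build was mm10, per the submitters' processing notes, and the annotation was Ensembl 87, from the name of the deposited table. The deposited gene length, in bases of merged exons, served for levels per kilobase and for length trends. The kit marks strand, per the labels' protocols, but the strand setting of the counting is not given in the sources used here. Spike-ins, 92 entries with 1 read, were left out. Symbols, biotypes, GC content and shared 50-base sequences came from GENCODE M21, on the same build. Promoter sequences came from RefSeq (GRCm38.p6).

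Genes were tested with edgeR 4.0.16 in R 4.3.3 (TMM, filterByExpr by group, robust quasi-likelihood F test, two-sided, group as the only term). CPM use TMM-adjusted totals. Every list member was counted, and the named pathway genes are the 3 called members of each list with the smallest p and the 2 most abundant, apart from a gene that is not reported here. Marker genes named are the 2 most abundant of a list. Fgf20, Pdx1, Krt18, Alb and Esrp1 are named outside that rule. Members and lists were chosen with earlier results of these data known. Replicate libraries differed beyond counting error, with chi-square over degrees of freedom between 6.71 and 16.1. Same-numbered libraries did not deviate together, so numbers were not taken as pairs.

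Marker lists also covered endocrine, endothelial, neural and glial, spleen, gut, and leukocyte and blood genes, with 1 higher and 4 lower of 10, 0 and 2 of 8, 2 and 4 of 8, 1 and 3 of 5, 0 and 0 of 3, and 5 and 1 of 7 tested. Alternatives were other scalings (RLE, upper quartile, totals alone), no filter, DESeq2 1.42.0, limma voom (limma 3.58.1), each library left out, a replicate block, protein-coding genes alone, removed GC and length trends, and libraries thinned to 12445425 counts.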

Additional observations from a re-analysis of the deposited data

How the results depend on the processing

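Over all results and alternatives, 893 of 1038 values were counted as unchanged. A called fold change had to keep its direction and its call, and an uncalled one had to stay uncalled, whatever its sign. Other values had to stay within 1.5 times or 1 SD of the value reported. Depth limits Fgf7, which had 6 to 11 reads per control. The cause of the changes below was not tested.

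The replicate block ended the call of Fgf7 (0.89, adjusted p = 0.0716) and of no other member, with 4704 genes higher and 4482 lower. Same-numbered libraries had correlations of deviations of -0.058, -0.038 and -0.048, so the numbers give no pairing. The call of Fgf7 also ended with DESeq2 (0.91), totals alone (0.79), thinned libraries (0.73), trends removed over all tested genes (0.73, with the replicate block 0.73) or over unique-sequence genes (0.53). Fgf1 gained a call with no filter (0.34).

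With trends removed over all tested genes, without and with the replicate block, Fgfr1 was at 0.15 and 0.15, Fgfrl1 at 0.024 and 0.025, Fgfr4 at -0.15 and -0.15, Fgfr2 at 0.33 and 0.34, Fgf18 at -1.17 and -1.16, Map2k2 at 0.37 and 0.37, and Sdc1 at 0.22 and 0.22. Lower members then numbered 1 and 1, and other pathway genes 29 and 26 higher and 11 and 10 lower. Of all tested genes, these fits called 31.8% and 30.1% higher and 23.5% and 22.3% lower. Over unique-sequence genes alone, fewer genes were tested, with 2295 higher and 2671 lower. There Fgfr1 was at -0.055 and 13 pathway genes were lower. The sign of Fgf9 also turned with trends removed over all genes (-0.035) and thinned libraries (-0.15), and that of Fgfr2 with totals alone (-0.04) and without control replicate 3 (-0.026), none of them called.

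Leaving out each library gave ranges of 0.77 to 1.10 for Fgf10, 0.66 to 1.09 for Fgf7, 0.13 to 0.50 for Fgf1, 0.28 to 0.44 for Fgfr3, -0.33 to -0.29 for Fgfr1, -0.60 to -0.52 for Fgfrl1 and -0.80 to -0.75 for Fgfr4.

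The change in receptor share, with Fgfrl1 left out, was 0.023 points for Fgfr1, 5.49 for Fgfr2, 4.62 for Fgfr3 and -10.1 for Fgfr4. Without division by length it was -0.86 for Fgfr1, 5.36 for Fgfr2 and -4.01 for Fgfr4. By Pearson correlation, 1 of the 3 genes nearest to Fgf10, 0 of those nearest to Fgfr2 and 1 of those nearest to Fgfr4 were named again.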
